A study of Rattus norvegicus with 2 samples.

Results

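Sprouty, Spred and dual-specificity phosphatase (DUSP) genes encode brakes on the FGF-ERK pathway. The set described here was fixed by name and holds 10 genes: Spry1, Spry2, Spry4, Spred1, Spred2, Dusp4, Dusp5, Dusp6, Phlda1 and Il17rd. Members were found by matching the RefSeq accession of each array probe to a rat symbol, and 9 of the 10 had a matched probe, among 15437 genes with a matched probe in all. Spry1 was not matched and is not analysed here. A gene counted as measured where a probe was well above background in at least 1 colour channel. That held for 9 members of 10844 measured genes on one array and for 7 of 10235 on the other.

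RNA came from primary neural stem cells of the cortex of SD rat embryos at day 14, grown in N2 medium with 10 ng/mL bFGF (FGF2, the ligand that keeps these cells dividing). The cells had been transiently transfected with 4 µg of plasmid, either the empty vector MSCV-IRES-EGFP or the same vector carrying rat Bcl-2, an inhibitor of apoptosis (rBcl-2-MSCV-IRES-EGFP). All groups therefore carry a green fluorescent reporter, and the labels do not say that transfected cells were sorted from the rest. On the withdrawal array the red channel is labelled as vector cells without bFGF, which spent 2 days in NB medium, so that medium and growth factor changed together, and the green channel as vector cells with bFGF. On the array labelled Bcl-2, red is labelled as Bcl-2 cells with bFGF and green again as vector cells with bFGF. The series' own design text names vector without bFGF and Bcl-2 with bFGF as the conditions compared.

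Fibroblast growth factors bind receptor tyrosine kinases, whose adaptors switch on Ras and then the Raf, MEK and ERK kinases in turn. Active ERK enters the nucleus and induces transcription factors and growth genes, and also a set of inhibitors that act back on the same cascade. Sprouty and Spred proteins restrain Ras and Raf, DUSP proteins remove the phosphates that activate ERK, and Il17rd, also called Sef, holds back signalling from the receptor or the kinases below it. RNA of these inhibitors is widely read as a marker of FGF-ERK signalling in the embryonic brain, where bFGF holds cortical precursors in a dividing state.

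The promoter sequences are shown for the members whose 300 bases around the start site held a motif of an ERK-linked factor. RefSeq promoters (build GRCr8, 250 bases before to 50 after each start site) were matched by symbol for 9 of the 10 members, 10 promoters in all. Dusp4 was not among them. Capitals mark the matches. In Dusp5 they are CArG boxes, the site of serum response factor, at chr1:262543674-262543773 (plus strand). In Dusp6, at chr7:35979557-35979584 and chr7:35979582-35979609 (plus strand), and in Spry4, at chr18:30702675-30702774 (minus strand), they match the site of Capicua, a repressor that ERK inactivates.
Dusp5: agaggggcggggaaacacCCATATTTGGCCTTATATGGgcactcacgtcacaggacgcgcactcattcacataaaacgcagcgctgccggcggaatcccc
Dusp6, upstream match: agagaatgtaTCCATTGAgacgctggct
Dusp6, match next to the start site: gctgtttgtaTCCATTGAggagctgcct
Spry4: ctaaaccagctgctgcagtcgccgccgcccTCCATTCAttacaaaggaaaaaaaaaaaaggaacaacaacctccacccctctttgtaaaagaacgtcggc

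The CArG boxes of Dusp5 lie end to end, starting 82 and 72 bases before the start site. A CArG box occurred in 1.64% of the 33469 promoters in the table, and 2 or more in 0.0209%. The Dusp6 matches start 37 and 12 bases before the start site, and the Spry4 match 198 bases before it. Dusp6 as annotated begins further upstream than the start site used here, so its matches may lie within another transcript. The Capicua letters searched on both strands were TGAATGAA, TCAATGAA, TGAATGGA and TCAATGGA, found in 4.26% of all promoters and at least 2 times in 0.242%. Also searched on both strands were the ETS letters CCGGAAG (8.75% of all promoters), the AP-1 letters TGANTCA (7.33%) and the CRE letters TGACGTCA (1.83%), none of which occurred in a member's promoter window. No searched string contains another. A match is a description of the letters alone.

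Each comparison rests on 1 array with no dye swap, so no test was possible, and every value below describes these arrays. Values are log2 ratios of red over green after background correction and loess normalization within the array. A gene was counted as at least 2-fold where its absolute log2 ratio reached 1 and its kept probes shared 1 sign. Median net signals of the channels ran from 189.0 to 284.5, and 66.1% to 72.0% of gene spots were well above background. The probe of Bcl2, the gene on the plasmid, lay at 0.39 on the withdrawal array and at -0.02 on the array labelled Bcl-2. It thus gave no higher signal in the channel labelled Bcl-2, and the sources do not say whether the plasmid holds the sequence it reads.

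Which way the ratios run is not settled. Both arrays are labelled with the same control in green, yet their log2 ratios correlated at r = -0.67 over all gene spots (-0.15 with the scanner software's own ratio, here called the Feature Extraction ratio). Values therefore stand as red over green in the labelled channels. If an array's sign is turned, every higher value on it becomes lower, and the reverse. If instead a channel held another RNA than its label says, no sign would turn, but the ratio would compare other cells. Which of these holds was not tested.

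On the withdrawal array, 4 feedback genes lay lower in the channel labelled without bFGF: Phlda1 at -0.92, Dusp5 at -0.73, Spry4 at -0.72 and Spry2 at -0.49. Dusp6, the ERK phosphatase most used as a reading of FGF signalling, was not among them and lay at 0.13. Spred1 at -0.09, Spred2 at 0.17, Dusp4 at 0.05 and Il17rd at 0.01 lay near 0. In all, 5 of 9 members were below 0, against 45.7% of all measured genes, and the median was -0.09, against 0.03 over all genes. The split was 3 above and 6 below 0 with the Feature Extraction ratio, and 2 above and 7 below with median centring without loess, which put 68.0% of all genes above 0. No member reached 2-fold: 0 of 9 were at least 2-fold lower, where 0.47% of genes were, and 0 of 9 at least 2-fold higher, where 2.43% were. With the Feature Extraction ratio, 1 of 9 was at least 2-fold lower, Phlda1 at -1.17, where 2.19% of genes were, and 0 of 9 at least 2-fold higher, where 8.17% were. With the sign turned, the same 4 genes would be higher without bFGF, 5 of 9 would lie above 0, and the median would be 0.09.

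On the array labelled Bcl-2, the same 4 genes were higher in red and Dusp6 was lower. Phlda1 lay at 1.20, Spry4 at 0.77, Spry2 at 0.55, Dusp5 at 0.45 and Dusp6 at -0.33, while Spred1 at -0.03 and Il17rd at -0.08 lay near 0. Dusp4 and Spred2 were well above background in neither. Of 7 measured members, 4 lay above 0, against 48.3% of genes, with a median of 0.45 against -0.01 over all genes (5 of 7 with the Feature Extraction ratio). Phlda1 was the 1 member of 7 at least 2-fold higher, where 0.557% of genes were, and 0 of 7 were at least 2-fold lower, where 2.0% were. The Feature Extraction ratio gave the same counts, 1 of 7 higher, where 3.5% of genes were, and 0 of 7 lower, where 6.74% were. With the sign turned, 3 of 7 would lie above 0, the median would be -0.45, and Phlda1 would be the 1 member at least 2-fold lower.

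**Figure D1:**
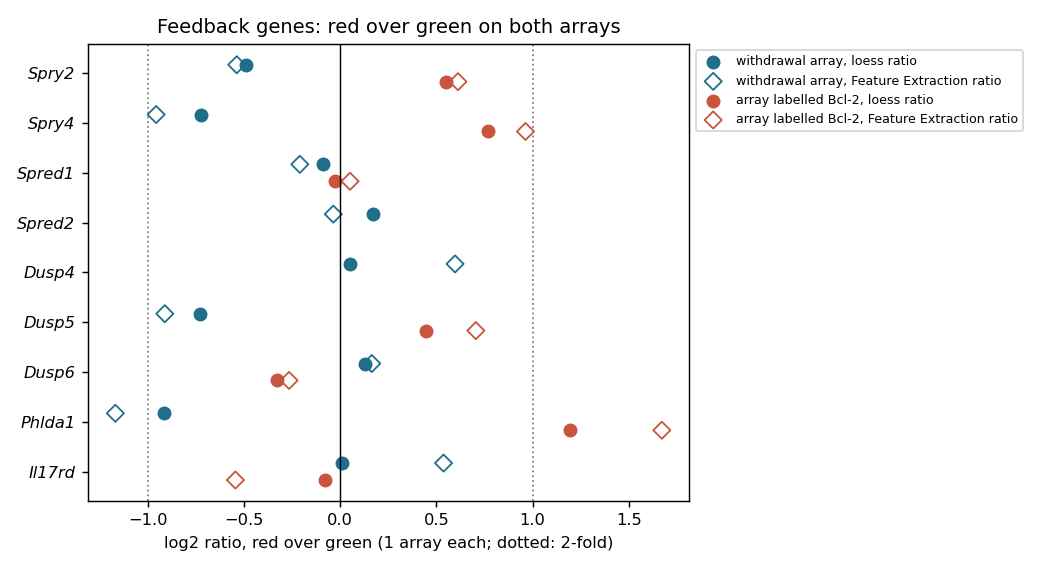
The log2 ratio of red over green (x axis) of the 9 matched feedback genes on the withdrawal array (blue) and the array labelled Bcl-2 (orange), by the loess ratio (circles) and the Feature Extraction ratio (diamonds), 1 array each. Phlda1, Spry4, Dusp5 and Spry2 lie left of 0 on the withdrawal array and right of 0 on the other, Dusp6 the opposite way, and dotted lines mark 2-fold.

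Sprouty proteins bind Grb2, Raf and other parts of the cascade. Channel values below are log2 signals scaled to be compared between arrays. Spry2, with 1 probe, had log2 channel values of 11.30 (red) and 11.79 (green) on the withdrawal array and of 11.76 (red) and 11.21 (green) on the array labelled Bcl-2. Red was thus 1.40-fold lower than green on the withdrawal array and 1.46-fold higher on the other. In size, whichever way the ratios run, 15.8% of measured genes lay further from 0 than Spry2 on the withdrawal array and 10.1% on the array labelled Bcl-2. The Feature Extraction ratios of Spry2 were -0.54 and 0.61, and the deposited error of each log ratio, which covers technical error alone, was 0.21 on the log2 scale. Both ratios were larger than that error, which says nothing of the spread between cultures.

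Spry4 lay further from 0 than Spry2 on both arrays, and its probes gave the same sign but not the same size. The brighter probe read 10.88 (red) and 11.87 (green) on the withdrawal array and 11.74 (red) and 10.65 (green) on the array labelled Bcl-2, which gave log2 ratios of -0.997 and 1.09. The dimmer probe read 7.47 and 7.92, then 7.87 and 7.42, with log2 ratios of -0.45 and 0.45. The probes lay closer together with the Feature Extraction ratio, at -0.98 and -0.93 on the withdrawal array and at 1.21 and 0.72 on the other. The background offset draws ratios of dim spots toward 0. The Spry4 value used here is the median of both probes, -0.72 and 0.77, with 6.66% and 5.04% of genes further from 0.

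Spred proteins bind neurofibromin and so keep Ras in its inactive form. Spred1 read 8.90 (red) and 8.99 (green) on the withdrawal array and 9.03 (red) and 9.05 (green) on the array labelled Bcl-2, so that its 4 channel values spanned a narrow range. Its ratios of -0.09 and -0.03 were smaller than the deposited error of 0.21, and the latter turned to 0.05 with the Feature Extraction ratio. Spred1 was the 1 member of 7 measured on both arrays whose sign was the same on both, where 74.1% of 10156 genes had opposite signs. Spred2 was well above background only in red on the withdrawal array. Its loess ratio put red 1.12-fold over green, which is no lower bound, and the Feature Extraction ratio turned its sign, at -0.04. Median centring without loess turned it too, at -0.12, and put Spred1 at 0.16 on that array. For both Spred genes the arrays therefore show no difference that holds under each scaling.

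The DUSP genes parted from each other. DUSP5 is a nuclear phosphatase and DUSP6 a cytoplasmic one, both selective for ERK, while DUSP4 acts in the nucleus on ERK and other MAP kinases. The probes of Dusp5 and Dusp6 were each printed in 10 spots per array, which makes theirs the best measured values of the set. Dusp5 read 8.97 (red) and 9.70 (green) on the withdrawal array and 9.46 (red) and 9.01 (green) on the array labelled Bcl-2. Its 10 spots ran from -0.80 to -0.64 on the withdrawal array, with a mean of -0.73 ± 0.05 (SD over spots), and from 0.38 to 0.51 on the other, with a mean of 0.45 ± 0.05. Dusp5 was thus 1.66-fold lower in red on the first and 1.36-fold higher in red on the second.

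Dusp6 read 14.56 (red) and 14.43 (green) on the withdrawal array and 14.28 (red) and 14.61 (green) on the array labelled Bcl-2. Of its 10 spots, 8 were used on each array, the others being outliers. The 8 spots ran from 0.11 to 0.14 on the withdrawal array, with a mean of 0.13 ± 0.01 (SD over spots), and from -0.35 to -0.30 on the other, with a mean of -0.33 ± 0.015. The spots of Dusp5 and Dusp6 did not overlap on either array, so the 2 phosphatase genes differed in sign by far more than the spread over spots. The deposited error of the Dusp6 log ratio was 0.205 on both arrays. Its ratio of 0.13 on the withdrawal array lay within that error, and its ratio of -0.33 on the other did not. Over probes with at least 8 usable spots, the median SD over spots was 0.037 on both arrays. Spots share the same labelled RNA, so this spread is technical and covers neither cultures nor dye bias of the probe. Dusp6 kept its sign under each of the 8 processing alternatives on both arrays, from 0.12 to 0.50 on the withdrawal array and from -0.34 to -0.15 on the other. Changing the dim filter or the probe average left its values as they were, so those alternatives were no check of its sign.

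**Figure D2:**
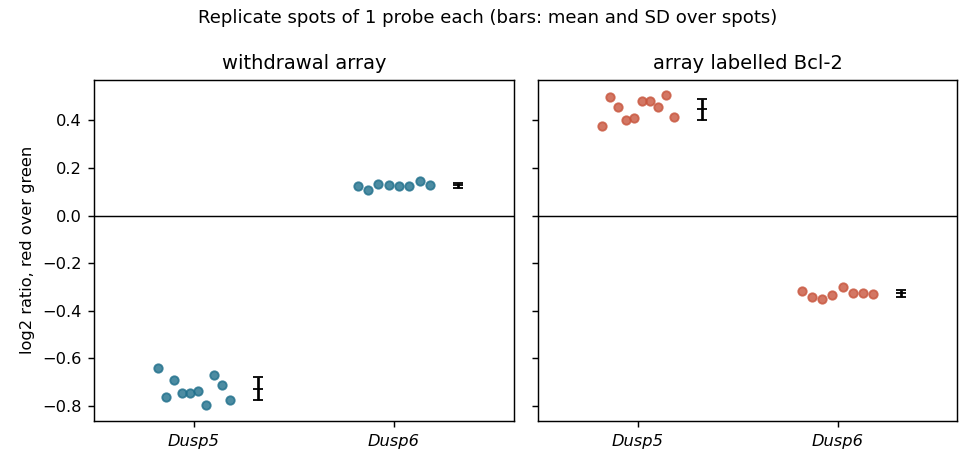
Log2 ratios of red over green (y axis) of the single spots of the Dusp5 and Dusp6 probes on the withdrawal array (left) and the array labelled Bcl-2 (right), with the mean and SD over spots beside them. Dusp5 spots lie from -0.80 to -0.64 and from 0.38 to 0.51, and Dusp6 spots from 0.11 to 0.14 and from -0.35 to -0.30, with no overlap.

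Dusp4 and Il17rd were dim. Dusp4 was well above background only in red on the withdrawal array, where the loess ratio put red 1.04-fold over green. The Feature Extraction ratio put Dusp4 at 0.60 with a deposited error of 0.54, so that no difference can be read for this gene. Il17rd read 6.99 (red) and 6.98 (green) on the withdrawal array, where green was not well above background and red was 1.01-fold higher by the loess ratio. It was well above background in both channels of the array labelled Bcl-2, at 6.94 (red) and 7.02 (green). Its Feature Extraction ratios were larger, 0.54 and -0.55, with deposited errors of 0.35 and 0.39. Median centring without loess turned the sign on the withdrawal array, to -0.28 for Dusp4 and -0.19 for Il17rd.

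Phlda1 encodes a pleckstrin homology domain protein that growth factors induce through ERK. By the value per gene, it had the largest ratio of the set on both arrays. The brighter Spry4 probe alone lay further from 0 on the withdrawal array, at -0.997. The Phlda1 probe read 8.41 (red) and 9.32 (green) on the withdrawal array and 9.45 (red) and 8.25 (green) on the array labelled Bcl-2. Red was thus 1.89-fold lower on the withdrawal array, where 3.78% of genes lay further from 0 in either direction, and 2.29-fold higher on the other, where 1.51% did. The Feature Extraction ratios were -1.17 and 1.67, a 2.25-fold and a 3.19-fold difference, with deposited errors of 0.23 and 0.26. It rests on 1 spot of 1 probe, so neither value has a check within the array.

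**Figure D3:**
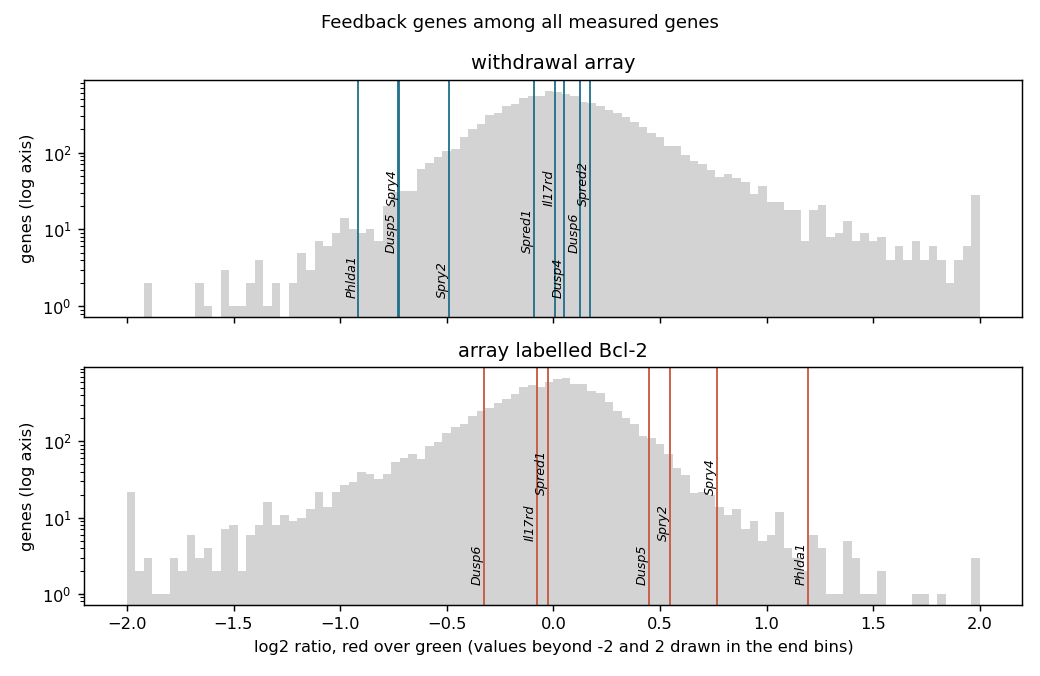
Histograms of the log2 ratio of red over green (x axis) of all measured genes on the withdrawal array (top, 10844 genes) and the array labelled Bcl-2 (bottom, 10235 genes), with the number of genes on a log axis. Vertical lines mark the feedback genes: Phlda1, Dusp5, Spry4 and Spry2 lie in the lower tail at the top and on the upper side at the bottom, and the other members in the central mass.

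The 4 channels bear on what the labels say. Of the 7 member probes well above background in all of them, 6 had a green value on the array labelled Bcl-2 nearer to the red value of the withdrawal array than to its green value, where 72.2% of 17298 such probes in all did. The exception was Spred1. For the brighter Spry4 probe, the green channels, labelled as one control, differed by -1.22 (array labelled Bcl-2 minus withdrawal array), while the former's green minus the latter's red was -0.22. The difference of the green channels was -1.07 for Phlda1, -0.69 for Dusp5, -0.58 for Spry2 and 0.17 for Dusp6. Set against red of the withdrawal array, that same green channel differed by -0.16 for Phlda1, 0.04 for Dusp5, -0.09 for Spry2 and 0.05 for Dusp6. For these 5 genes, the channels labelled as the same control were thus further apart than the channels labelled with and without bFGF across the arrays. Red of the array labelled Bcl-2 was also set against green of the withdrawal array. It differed by -0.13 for the brighter Spry4 probe, 0.12 for Phlda1, -0.24 for Dusp5, -0.03 for Spry2 and -0.155 for Dusp6. Over the 17298 probes, the SD of this difference was 0.148. That of the green channel labelled Bcl-2 minus red of the withdrawal array was 0.142, and that of green minus green 0.379.

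**Figure D4:**
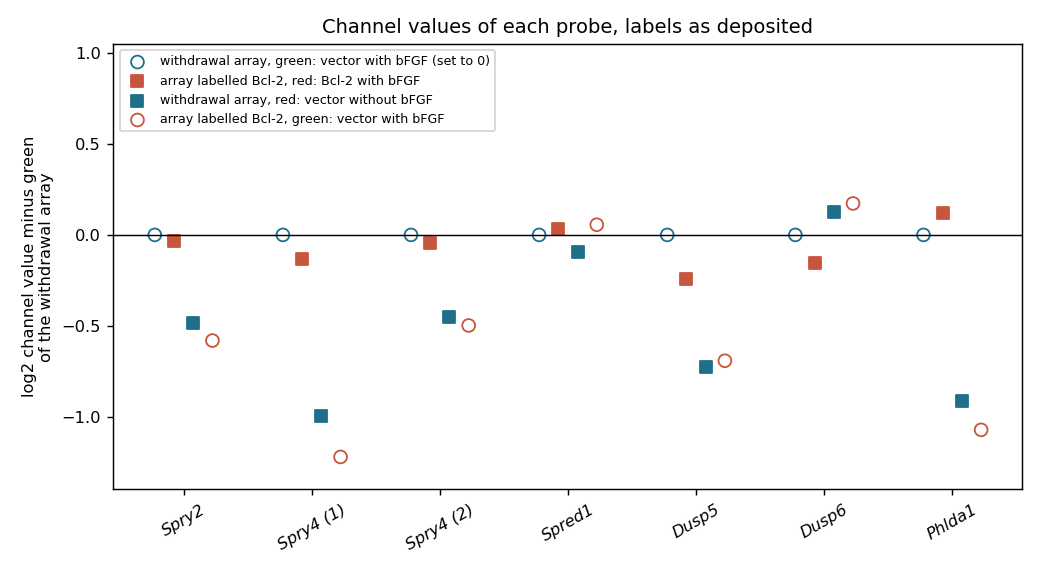
Log2 channel values of the 7 member probes well above background in all 4 channels, each minus the green value of the withdrawal array (y axis), with Spry4 shown by its brighter probe (1) and its dimmer one (2). Filled blue squares and open orange circles, labelled without and with bFGF, lie close together, from -0.22 to 0.15 apart.

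The second column of the authors' deposited table equals one array's ratio times the other's, for 100% of 28395 probes within 0.05 on the log2 scale after a constant. If green of the former and red of the latter came from like RNA, that product would compare the other two channels. On the log2 scale the product is a sum. From the loess ratios it was 0.06 for Spry2, 0.05 for Spry4, -0.12 for Spred1, -0.28 for Dusp5, -0.20 for Dusp6, 0.28 for Phlda1 (0.50 with the Feature Extraction ratio) and -0.07 for Il17rd. The authors' deposited table gives member probes linear ratios from 0.864 to 1.42 in that column, apart from 2.46 for Dusp4, which was well above background in 1 of its 4 channels. Dye bias was not measured on either array.

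Other genes of the pathway were taken from lists by role. Of all measured genes, 54.3% lay above 0 on the withdrawal array, or 68.0% with median centring without loess. On the other array, 51.7% lay below 0. At least 2-fold higher on the withdrawal array were 2.43% of genes (8.17% with the Feature Extraction ratio). At least 2-fold lower on the array labelled Bcl-2 were 2.0% (6.74% with the Feature Extraction ratio). Among FGF receptors, ligands and heparan sulphate carriers, 10 of 13 measured genes lay above 0 on the withdrawal array, with a median of 0.20 (12 of 13 with median centring without loess). Fgfr3, a receptor of cortical precursors and astrocytes, at 1.26, and the glypican gene Gpc4, at 1.098, were at least 2-fold higher. The Feature Extraction ratio gave 3 such genes, adding the ligand gene Fgf18 at 1.41 (0.20 by the loess ratio). Green of Fgf18 was not well above background. The array labelled Bcl-2 had 10 of 12 below 0, with a median of -0.36. Gpc4, at -1.12, was at least 2-fold lower and Fgfr3 lay at -0.99. The Feature Extraction ratio gave 3 genes at least 2-fold lower, Gpc4, Fgfr3 at -1.29 and the syndecan gene Sdc4 at -1.56 (-0.49 by the loess ratio). The Sdc4 value combines a probe at -0.83 and a dimmer one at -2.28, whose red was not well above background. A background offset of 10 in place of 50 and median centring each gave 2 genes at least 2-fold lower. The share of all genes was not counted under those settings. The receptor Fgfr1, at 0.13 and -0.41, had the signs of Dusp6, while Fgf2 itself, at 0.11 and -0.03, lay near 0.

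The adaptor, Ras, Raf, MEK and ERK genes, which carry the signal, were centred on 0, with medians of -0.03 and 0.02 over 20 measured genes and none at least 2-fold on either array. With median centring without loess, 16 of 20 lay above 0 on the withdrawal array, in place of 9. Of all genes, 68.0% did so with median centring and 54.3% by the loess ratio. The kinase gene Mapk3 lay at 0.16 and -0.17. The other negative regulators, 16 measured of 25, had medians of -0.03 and 0.05, again with none at least 2-fold by the loess ratio. Above 0 on the withdrawal array were 7 of 16, or 10 of 16 with median centring. Dusp10, a phosphatase of the stress kinases, lay at 0.86 on the array labelled Bcl-2 and at 2.25 with the Feature Extraction ratio, with green not well above background. Dusp1 was not well above background on either array.

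Nuclear targets of ERK gave mixed values too. Of 11 ETS factor genes, 9 lay below 0 on the withdrawal array, with a median of -0.14 (6 of 11 below 0 with median centring), and the median on the other array was 0.02. The PEA3 factors Etv4, at -0.38 and -0.16, and Etv5, at -0.07 and -0.08, are ETS factors that FGF induces in many tissues. The Etv5 values lay within the deposited error, and its 2 probes differed in sign on the withdrawal array, at 0.098 and -0.25. Of 14 measured immediate early and growth genes, 10 lay below 0 on the withdrawal array, with a median of -0.22. Myc, a driver of growth, was at least 2-fold lower, at -1.398, where 0.47% of all genes were. The cell cycle gene Ccnd1 and the early gene Egr1 followed at -0.93 and -0.78. Fosl1, an AP-1 subunit gene of the same list, ran the other way, at 0.92 on the withdrawal array (1.02 with the Feature Extraction ratio) and -0.91 on the other (-1.39). Dusp10, Sdc4, Fgf18 and Fosl1 were singled out after their values were seen. Values on the other array were 0.86 for Myc, 0.95 for Ccnd1 (1.01 with the Feature Extraction ratio) and 0.75 for Egr1, and 8 of 12 genes of this list were above 0, with a median of 0.11 and none at least 2-fold by the loess ratio. On that array 1 gene of the list was at least 2-fold lower with the Feature Extraction ratio, with the offset of 10 and with median centring. With the Feature Extraction ratio, 6.74% of all genes were. The share was not counted with the offset of 10 or with median centring.

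**Figure D5:**
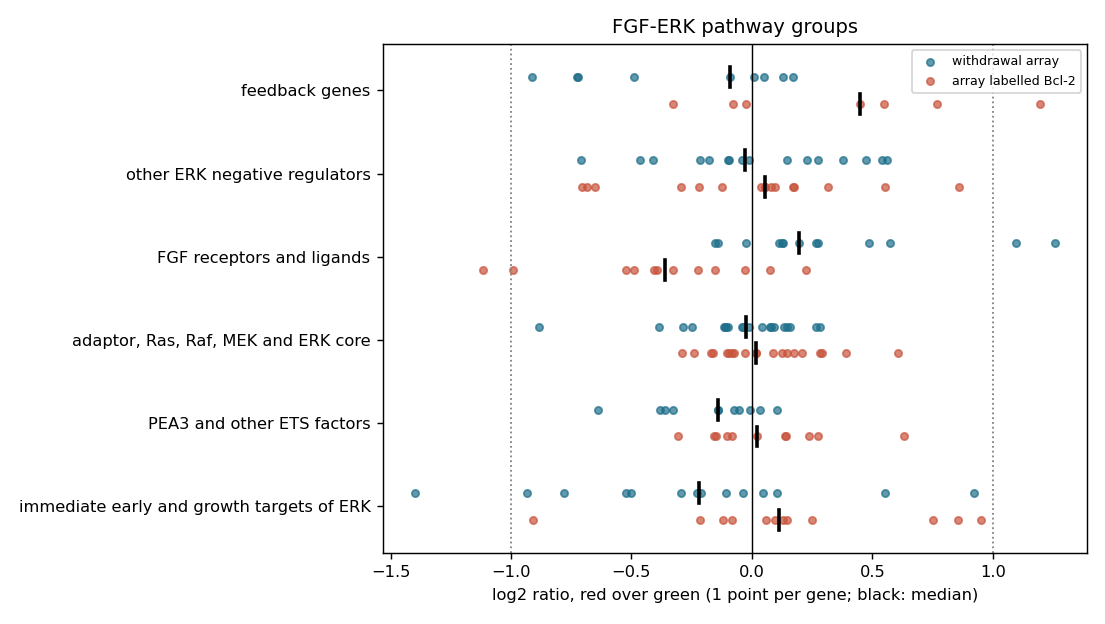
Log2 ratios of red over green (x axis), 1 point per gene, of the feedback genes and 5 other groups of the FGF-ERK pathway on the withdrawal array (blue) and the array labelled Bcl-2 (orange); black bars are medians and dotted lines mark 2-fold. Feedback genes spread from -0.92 to 0.17 and from -0.33 to 1.20, while the adaptor, Ras, Raf, MEK and ERK genes have medians of -0.03 and 0.02.

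The genes whose pair of log2 ratios lay nearest to that of Phlda1 (distance over the 2 ratios, 1 per array) were Acsl4, which activates long fatty acids, at a distance of 0.10, Acly, which makes cytosolic acetyl-CoA, at 0.11, and the early response receptor gene Nr4a1 at 0.13. Nearest to Dusp6 were Mpc2, Hist2h3c2 and Dnai1, within 0.012. As many as 61 genes lay within 0.05 of Dusp6 and 0 within 0.05 of Phlda1, so the order of the genes nearest to Dusp6 carries little information. The distances to Phlda1 were smaller than the deposited errors of its log ratios, 0.23 and 0.26. Which genes lie nearest to Phlda1 is therefore not resolved either.

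Markers of several cell types differed between the same channels. On the withdrawal array, 7 of 9 measured progenitor markers, 6 of 6 neuron markers and 7 of 7 astrocyte markers lay above 0, with medians of 0.52, 0.55 and 0.78. The other array had 7 of 9, 5 of 6 and 7 of 7 below 0. Of all genes, 54.3% lay above 0 on the withdrawal array and 51.7% below 0 on the other. Summed channel values of the neuron list were 20018 (red) and 12876 (green) on the withdrawal array and 13421 (red) and 18854 (green) on the other. Those of the astrocyte list were 40246, 20517, 21744 and 41314 in the same order. Of the defining markers, Gfap and Syt1 were not well above background in any channel, while the progenitor genes Sox2 and Nes were above it in every channel. The fibroblast list also had 7 of 7 genes above 0 on the withdrawal array and 6 of 6 below 0 on the other. Medians of the oligodendrocyte list were 0.16 and -0.23, of the microglia and blood list -0.17 and 0.15, and of the endothelium and pericyte list 0.20 and -0.05. Mog, Hbb, Itgam, Ptprc, Cldn5, Pecam1, Rgs5 and Tek were not well above background. In these bulk RNA samples, fewer cells of a type and less RNA per cell cannot be told apart, and the part of cell makeup in the values of the feedback genes was not tested.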

How the data were processed

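Total RNA was hybridised to 2 two-colour Agilent rat arrays of design 028282 (build rn4, scanner G2505C). Per the file headers, the deposited scanner files were made with Feature Extraction 11.5.1.1, while the submitters' processing notes name 8.5.1.1. The deposited files hold intensity as the median over pixels of spot and background, not normalized, processed intensity, a log10 ratio (red over green), the error of that ratio, a p-value from the spot noise model (not used here) and other 0 or 1 flags. The authors' deposited table holds linear ratios, with medians of 0.932 and 0.944. No source used here gives its scale, centring or direction. Set against the scanner values, the first column was the withdrawal ratio, red over green, times a constant (100% of probes within 0.05 on the log2 scale), and the second the product of both arrays' ratios. As an alternative, the quotient of the columns stood for the array labelled Bcl-2.

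Signals were corrected with normexp (offset 50) and loess in limma 3.58.1 under R 4.3.3, with control spots at weight 0. A run on simulated data checked this step coarsely, for bright spots with changes of at least 2-fold. It does not bear on dim spots or on ratios as small as those of most members. Channel values used loess and Aquantile. Outlier spots (534 and 576 in all) were left out, spots of a probe were averaged, and genes took the median of their probes, kept if well above background in 1 channel or both. Accessions matched an assembly GRCr8 gene table for 60.4% of 30367 probes. Where 1 channel was dim, folds divide the bright signal by the dim one, or by the lowest signal well above background if that is higher. Such folds are not lower bounds under other scalings, and dye bias can enter them. Tables were made in Python 3.11.15 with pandas 2.3.3. Nothing in the labels says how many cultures or embryos gave each RNA. Members, lists, motifs and the rule for named genes (all members, genes of the pathway lists at least 2-fold by the loess ratio, and a few fixed pathway genes, with marker lists given by counts) were chosen with earlier results of these data known. Alternatives changed the ratio, offset, loess, dim filter, outliers, probe average and source table.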

Additional observations from a re-analysis of the deposited data

Results flagged for a closer look

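Phlda1 was the 1 feedback gene at least 2-fold on an array and of opposite sign on the other, at -0.92 on the withdrawal array and 1.20 on the array labelled Bcl-2. Opposite signs were usual, in 6 of 7 members and in 74.1% of 10156 genes measured on both arrays. At least 2-fold higher on the array labelled Bcl-2 were 0.557% of genes. The difference between the arrays has no test with 1 array for each, and so was not tested.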

How the results depend on the processing

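The signs of Phlda1, Spry4, Spry2, Dusp5 and Dusp6 held on both arrays under all 8 alternatives. Not all of these could turn a sign. Changing the dim filter, the outliers or the probe average left the values of Phlda1, Spry4, Spry2 and Dusp5 as they were. The authors' deposited table repeats the Feature Extraction ratios up to a constant, so it is no separate check. The median of the members on the withdrawal array, -0.09, was -0.21 with the Feature Extraction ratio, -0.23 with median centring without loess, -0.61 when both channels had to be well above background (6 members, without the dim ones) and -0.14 with the authors' deposited table. On the array labelled Bcl-2, the median of 0.45 was 0.61 with the Feature Extraction ratio, 0.33 with median centring, 0.17 with no filter on dim probes (9 members) and 0.55 with the authors' deposited table. The count of members at least 2-fold lower on the withdrawal array was 1 with the Feature Extraction ratio, with an offset of 10 and with the authors' deposited table, in place of 0. Of all genes, 2.19% were with the Feature Extraction ratio and 0.47% by the loess ratio. The share was not counted with the offset of 10 or with the authors' deposited table. Median centring without loess also moved the median of all genes on the withdrawal array from 0.03 to 0.17 and turned the sign of 4 members there (Spred1, Spred2, Dusp4 and Il17rd). The Feature Extraction ratio turned 2 of 16 member values, Spred2 on the withdrawal array and Spred1 on the other. The authors' deposited table moved Dusp4, to 0.67, and Il17rd, to 0.61, on the withdrawal array by over 1.5 times. No paired analysis was possible because each group has 1 array. With 1 array per comparison, the number of arrays limits the precision, and dim signal limits Dusp4, Spred2 and Il17rd.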
